A study of Mus musculus with 6 samples.

Results

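Stem cells of the colonic crypt are recognised by a small set of transcripts, and 10 of these were followed here: Lgr5, Ascl2, Smoc2, Rgmb, Cdca7, Mex3a, Msi1, Lrig1, Hopx and Bmi1. They were taken from the gene tables by symbol. Each symbol matched a single row, so the set holds 10 of the 55487 genes in the tables. All 10 passed the filter on low counts that left 18539 genes for testing. The symbols were chosen as markers of crypt-base columnar cells and of slow-cycling or reserve cells, and no measured value entered that rule, although earlier results of these data were known when the set was made.

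Crypt-base columnar cells sit at the crypt floor, divide continually and carry LGR5, a receptor for R-spondins that keeps Wnt receptors at the cell surface. ASCL2 is the transcription factor that holds these cells in the stem state. Slower cycling cells, described above the crypt floor or as a subset of the LGR5-positive cells, have been marked with Hopx, Bmi1, Lrig1 and Mex3a. These markers overlap in real crypts, and several are also read in progenitors or in stroma, so no symbol is a count of stem cells.

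The libraries were made from polyadenylated RNA of purified colonic crypt cells of C57BL/6 mice aged 4 weeks. Controls were M14(f/f) mice, in which both alleles of M14 are flanked by loxP sites, and mutants were M14(f/f);Villin-Cre mice, with 3 libraries in each group. Villin-Cre is active in the gut epithelium and not in stroma or blood cells, and the controls carried no Cre, so effects of Cre and of losing the gene cannot be told apart. M14 is read as Mettl14, a subunit of the methyltransferase that places N6-methyladenosine (m6A) in RNA. The series design text names 3 pairs of mice, without saying which control belongs with which mutant. Survival of stem cells that carry Lgr5 is named in the title, and the question put here is which stem cell transcripts differ between mutant and control crypts.

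Library totals ran from 24181631 to 35183636 counts. Mettl14 itself fell from 20.9 to 26.2 CPM (counts scaled to a common library size, with TMM factors) in controls to 10.5 to 13.99 CPM in mutants (log2 fold change -0.85 with SE 0.13, edgeR adjusted p = 6.22e-04). Sex-linked genes set 2 libraries apart. Xist, which is made from the inactive X chromosome, stood at 652 CPM in mutant 1 and 53.1 CPM in mutant 2, against 1.28 to 1.77 CPM in the 3 controls and 1.504 CPM in mutant 3. Ddx3y, a gene of the Y chromosome, stood at 0.541 CPM in mutant 1 and at 38.0 to 58.4 CPM in the other 5 libraries, mutant 2 included. Mutant 1 therefore has the pattern of a female, and mutant 2 has transcripts of both kinds. Whether the mutant libraries come from 3 separate animals was not tested, so an n of 3 counts libraries throughout. Marker results are also given below without these libraries.

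Of the 10 markers 3 rose in mutants, 6 fell and Bmi1 did not pass the threshold, an adjusted p of 0.05 over all tested genes by the quasi-likelihood test of edgeR. Across all tested genes 46.3% passed that threshold, 23.5% upward and 22.8% downward, so a call by itself is common in this comparison. The CPM ranges of the groups were apart for 9 of the 10 markers, and for 56.9% of all tested genes. The median absolute log2 fold change was 0.85 over the markers and 0.41 over all tested genes, and the signed medians were -0.27 and 0.01. The counts of 3 risen and 6 fallen markers were the same without mutant 1, where 43.9% of all tested genes passed. Without mutant 2 alone, or without mutant 3 alone, 3 rose and 5 fell, since Cdca7 no longer passed. Of all tested genes 40% and 37.7% passed in these fits.

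**Figure D1:**
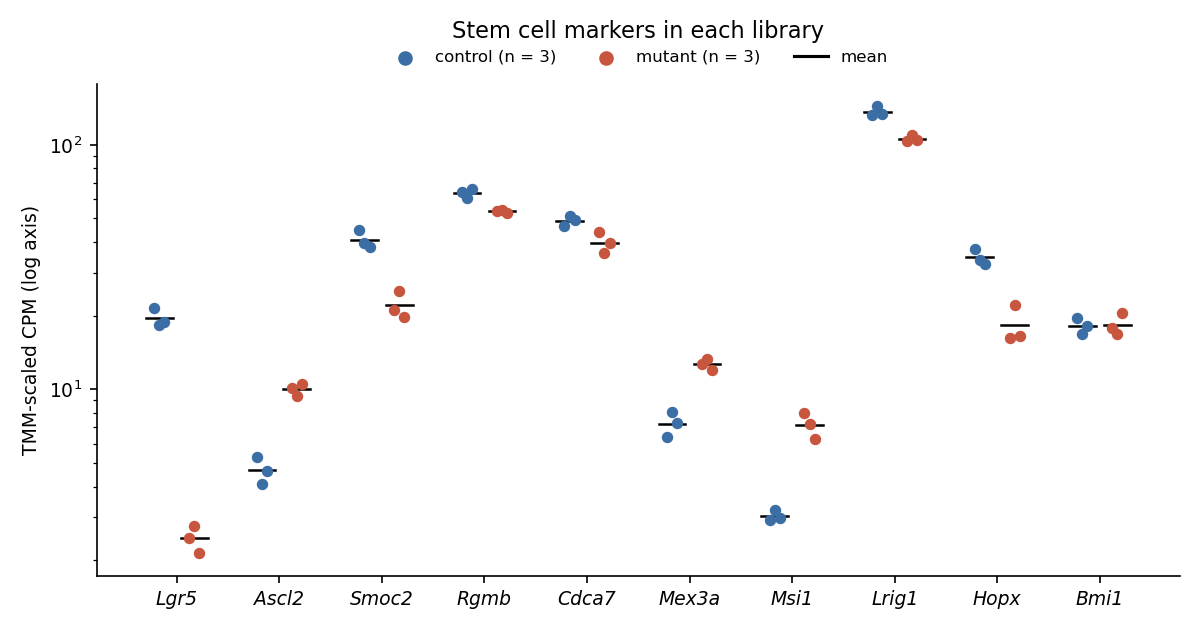
TMM-scaled CPM (log axis) of the 10 stem cell markers in each of 3 control and 3 mutant libraries, with a black line at each group's mean. Control and mutant points are apart for every marker except Bmi1, and Lgr5 has the widest gap, from 18.3 to 21.6 CPM down to 2.13 to 2.76 CPM.

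Because the mutants were bred to lose a subunit of the m6A writer, the transcripts of the markers were searched for GGACT, a frequent core of m6A sites, on the transcript strand. The longest protein-coding transcript of each gene in GENCODE vM21 (GRCm38) was used. For the 8 markers with a match inside the coding sequence, the match closest to the stop codon is shown with 10 coding bases on each side, written 5′ to 3′ with the searched letters in capitals.
Lgr5: atgctttgatGGACTccacagcctg
Ascl2: cggggtcccaGGACTgcaggaggcc
Smoc2: actgcagcctGGACTgcccaagctc
Rgmb: tgttggtcttGGACTcacatgcttg
Lrig1: gattcctcttGGACTttagcaaagt
Msi1: cagccaaccaGGACTccggggtcag
Mex3a: gcagcgggcgGGACTgcatggtgtg
Bmi1: ccagagggatGGACTgacgaatgct

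The markers did not share a density of these letters. Of 14209 tested genes with a protein-coding transcript, 92.7% held at least 1 match, and the median density was 1.05 per kb, with quartiles of 0.65 and 1.53. Among the markers that rose, Ascl2 held 1.87 matches per kb, Msi1 1.28 and Mex3a 1.04. Among those that fell, Lrig1 held 2.02 per kb, Lgr5 1.06, Hopx 0.793, Smoc2 0.706, Rgmb 0.702 and Cdca7 none in its 2424 bases. Bmi1, which did not pass, held 1.11 per kb. Lgr5 had 2 matches in its 2721 coding bases, the later of them 2023 bases before the stop codon, and 3 in the 3′ UTR. In Rgmb the last coding match lay 28 bases before the stop codon, in Msi1 107, in Mex3a 155, in Lrig1 225, in Bmi1 250, in Ascl2 751 and in Smoc2 1211. These are matches of letters, and methylation was not measured in these libraries.

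Lgr5 (ENSMUSG00000020140.15, minus strand of chromosome 10, 115450311 to 115587780 on GRCm38) had the largest change of the 10. Controls 1 to 3 held 757, 615 and 585 counts, or 21.6, 18.3 and 18.9 CPM, and mutants 1 to 3 held 64, 69 and 78 counts, or 2.47, 2.76 and 2.13 CPM. Every mutant lay far under every control, and all libraries were above the level that 3 counts give (at most 0.124 CPM). The level fell by 87.5%, or -3.003 as a log2 fold change (95% interval -3.31 to -2.69, adjusted p = 4.17e-07 by edgeR). Only 0.167% of tested genes had a lower log2 fold change. Against a null of 1.5-fold instead of no change, the adjusted p was 8.81e-07.

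Ascl2 (ENSMUSG00000009248.6, minus strand of chromosome 7, 142966829 to 142969264) moved the opposite way. The controls held 5.31, 4.10 and 4.61 CPM and the mutants 10.2, 9.40 and 10.6 CPM. The lowest mutant was well above the highest control. The level rose 2.15-fold, or 1.104 as a log2 fold change (95% interval 0.78 to 1.42, adjusted p = 2.00e-04 by edgeR). Lgr5 and Ascl2 are both used to define the same columnar cells, and in these libraries they came apart. On the log2 scale the ratio of Lgr5 to Ascl2 counts was 2.02, 2.16 and 2.03 in controls and -2.04, -1.77 and -2.31 in mutants. The group means of that log2 ratio differed by -4.11, mutant minus control. Gene length and library scaling cancel from this difference. It is a description, since the opposite directions of the genes were already known.

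The promoter of Ascl2 is shown because the gene, itself a transcription factor of the Wnt-driven stem cell programme, rose while Lgr5 fell. These are the 250 bases before its start in RefSeq on GRCm38.p6 (chr7:142969265-142969514, minus strand), 5′ to 3′, with capitals kept for motif matches, of which it has none.
Ascl2 promoter: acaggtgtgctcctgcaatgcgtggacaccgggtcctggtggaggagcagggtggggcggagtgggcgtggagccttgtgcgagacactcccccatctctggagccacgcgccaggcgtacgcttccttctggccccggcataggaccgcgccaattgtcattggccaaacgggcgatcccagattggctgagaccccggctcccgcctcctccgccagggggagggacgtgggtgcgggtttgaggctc

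Windows of 300 bases, 250 before the start and 50 after it, were searched on both strands for the TCF/LEF elements ATCAAAG and AACAAAG and for CAGCTG, an E-box that reads the same on both strands. RefSeq windows were matched for 7 of the 10 markers, giving 10 windows. Lgr5, Smoc2 and Msi1 were not among them. No window of the 7 held either TCF/LEF element, which were present in 3.73% and 5.85% of 32851 windows of all genes. CAGCTG was found in 16.3% of all windows and in a single window of the markers, that of Hopx, 33 bases after the start. The absence of letters in this window says nothing of binding elsewhere.

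Smoc2 (plus strand of chromosome 17, 14279506 to 14404790), a secreted matrix protein enriched in LGR5-positive cells, fell with Lgr5 but far less. Controls held 45.0, 39.6 and 38.3 CPM and mutants 21.1, 25.3 and 19.7 CPM. The groups were apart, and mutant 2 was the highest of the mutants. The fall was 46.3%, a log2 fold change of -0.90 (95% interval -1.13 to -0.66, adjusted p = 1.19e-04 by edgeR). SMOC2 is also made by fibroblasts, and of 10 fibroblast markers 6 fell, 1 rose and 3 did not pass in the same libraries. Those calls were 70% of the 10, against 46.3% of all tested genes. The summed level of the fibroblast markers was 279.9 to 322 CPM in controls and 149 to 179.8 CPM in mutants. Col1a1, Col1a2 and Col3a1, collagen genes of fibroblasts, had log2 fold changes of -1.34, -1.19 and -1.29. Pdgfrb rose (1.33), while Pdgfra, Thy1 and Lum did not pass (0.11, -0.004 and -0.91). The part of fibroblast RNA in the change of Smoc2 was not tested.

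Rgmb (minus strand of chromosome 17, 15803188 to 15831039) and Cdca7 (plus strand of chromosome 2, 72476159 to 72486893) showed small falls. RGMB is a membrane-anchored co-receptor for bone morphogenetic proteins (BMPs), and its transcript stood at 63.9, 60.3 and 65.8 CPM in controls and 53.8, 54.1 and 52.4 CPM in mutants. The groups did not overlap, and the mutants lay within 2 CPM of each other. Rgmb fell by 15.7%, or -0.25 on the log2 scale with an SE of 0.066 (edgeR adjusted p = 0.0123), and with library size as the only scaling the adjusted p was 0.0792. CDCA7 is a nuclear zinc-finger protein that brings the chromatin remodeller HELLS to nucleosomes and is read in dividing stem and progenitor cells. Cdca7 stood at 46.6, 51.0 and 49.3 CPM in controls and 44.0, 36.0 and 39.5 CPM in mutants. Mutant 1 came close to control 1, though the ranges stayed apart. Its log2 fold change of -0.30 had an SE of 0.085 (edgeR adjusted p = 0.0170). Leaving out mutant 2 ended the call of Cdca7 (log2 fold change -0.24, edgeR adjusted p = 0.0603), as did leaving out mutant 3 (-0.29, adjusted p = 0.0531). Neither gene passed against a null of 1.5-fold.

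The markers that encode RNA-binding proteins rose: Msi1 (plus strand of chromosome 5, 115429599 to 115455698) and Mex3a (plus strand of chromosome 3, 88532395 to 88541396). MSI1, a Musashi protein that controls translation, had transcripts at 2.91, 3.21 and 2.97 CPM in controls and at 8.001, 7.24 and 6.23 CPM in mutants. Its counts were low, from 92 to 108 in controls and 181 to 228 in mutants, but the groups were apart. Msi1 rose 2.36-fold, a log2 fold change of 1.24 (95% interval 0.88 to 1.597, adjusted p = 2.03e-04 by edgeR), the largest rise of the 10. MEX3A, an RNA-binding ubiquitin ligase that marks a slowly dividing subset of LGR5-positive cells, gave 6.36, 8.07 and 7.29 CPM in controls and 12.6, 13.2 and 12.03 CPM in mutants. No mutant reached down to a control. Mex3a rose 1.74-fold, a log2 fold change of 0.80 (95% interval 0.52 to 1.08, adjusted p = 5.99e-04 by edgeR), and it did not pass against a null of 1.5-fold (adjusted p = 0.0913). Msi1 is also read in nerve and glial cells. Of their 6 markers 3 were tested and 2 of those rose, while 23.5% of all tested genes rose. Ret, a receptor that other cells carry too, was among the 2, with a log2 fold change of 2.20. S100b and Sox10, which define glia, were at mean levels of 0.0995 and 0.111 CPM in controls and 0.102 and 0.0627 CPM in mutants. Their list summed to 6.99 to 7.15 CPM in controls and 19.7 to 29.0 CPM in mutants. Most of that difference was Ret, and the other 5 genes summed to 2.82 to 2.87 CPM in controls and 3.59 to 4.84 CPM in mutants. The part of this list in the rise of Msi1 was not tested.

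The reserve cell markers Lrig1 (minus strand of chromosome 6, 94604529 to 94700158), Hopx (minus strand of chromosome 5, 77086988 to 77115121) and Bmi1 (plus strand of chromosome 2, 18677018 to 18686629) did not move together. LRIG1, a membrane protein that restrains receptors of the EGF family, had the most abundant transcript of the set in CPM not divided by length. It stood at 131.9, 144 and 133 CPM in controls and 104, 109 and 104.9 CPM in mutants. All mutants were under all controls. Lrig1 fell by 22.3%, a log2 fold change of -0.36 (95% interval -0.52 to -0.21, adjusted p = 0.00194 by edgeR), and did not pass against a null of 1.5-fold. HOPX, a small homeodomain protein that does not bind DNA, was read at 37.4, 33.9 and 32.7 CPM in controls and 16.2, 22.1 and 16.5 CPM in mutants. Mutant 2 was the highest mutant, as for Smoc2, and still well under the controls. Hopx fell by 47.4%, a log2 fold change of -0.93 (95% interval -1.20 to -0.65, adjusted p = 2.36e-04 by edgeR). A share of 27.2% of its exonic bases lies under the antisense gene Hopxos, on the other strand, and counting used strand per the file headers.

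Bmi1, a subunit of Polycomb repressive complex 1 (PRC1), gave no call. Controls held 19.5, 16.8 and 18.2 CPM and mutants 17.8, 16.8 and 20.5 CPM, and the ranges overlapped almost wholly. The log2 fold change was 0.02 (adjusted p = 0.890 by edgeR), with a 95% interval of -0.21 to 0.25. The interval excludes a change of Bmi1 as large as that of any of the markers that rose, and it leaves room for a fall near -0.21.

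Without mutant 1 and mutant 2, which leaves a single mutant whose spread is taken to be that of the controls, log2 fold changes were -3.23 for Lgr5, 1.15 for Ascl2, -1.09 for Smoc2 and -1.10 for Hopx. On the same footing they were 1.01 for Msi1, 0.70 for Mex3a, -0.41 for Lrig1, -0.34 for Cdca7 and -0.30 for Rgmb. These directions were the same as with all libraries. The spread between replicates was modest for the markers. The coefficient of variation over 3 libraries ran from 4.42% (Rgmb) to 13.01% (Ascl2) in controls and from 1.70% (Rgmb) to 18.4% (Hopx) in mutants.

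Levels were also set side by side per kb of gene length, since longer transcripts yield more fragments. In controls the order was Lrig1 (24.4 ± 1.13 CPM per kb, SD, n = 3), Hopx (22.9 ± 1.63), Cdca7, Rgmb, Smoc2, Bmi1, Ascl2, Lgr5, Mex3a and Msi1 (0.522 ± 0.0270). Lrig1 and Hopx did not differ beyond their spread, while each later neighbour was apart. In mutants the order became Lrig1 (19.0 ± 0.528), Cdca7, Hopx, Rgmb, Ascl2, Bmi1, Smoc2, Mex3a, Msi1 and Lgr5 (0.239 ± 0.0306), with Cdca7 and Hopx overlapping. Lgr5 went from rank 8 to rank 10, and Ascl2 from rank 7 to rank 5. Among all tested genes Lgr5 went from the 44.1 percentile of level per kb to the 12.5 percentile, and Ascl2 from 51.0 to 65.9.

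The deposited length joins the exons of all transcripts of a gene, and for Lgr5 it is 10264 bases, against 4714 in its longest protein-coding transcript. With the transcript lengths, an alternative added after the data were seen, Lgr5 stood at 4.15 ± 0.377 and Ascl2 at 2.91 ± 0.379 CPM per kb in controls. Their order in controls is thus set by the choice of length. Smoc2 likewise moved above Rgmb in controls. In mutants Smoc2, at 7.78 CPM per kb of transcript, moved above Ascl2 (6.26) and Bmi1 (5.11), which put Ascl2 at rank 6, and Msi1 moved above Mex3a with overlapping ranges. In mutants Lgr5 was last under both lengths.

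**Figure D2:**
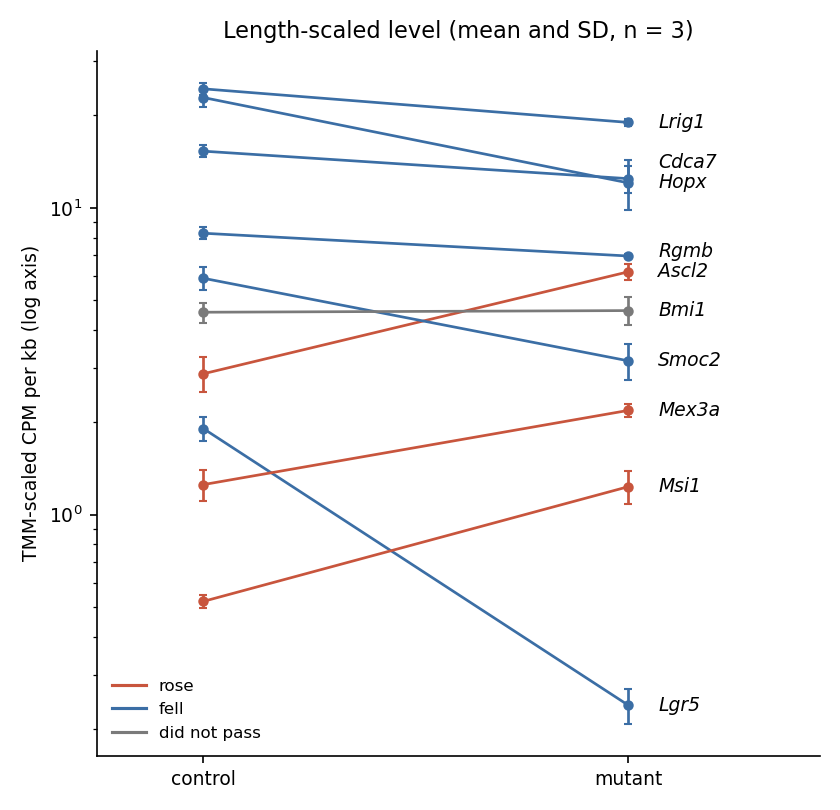
Mean TMM-scaled CPM per kb of deposited gene length (log axis) in controls and mutants, with SD over 3 libraries; red lines rose, blue lines fell and the grey line did not pass. Lgr5 drops from rank 8 to the lowest level of the 10, and the line of Ascl2 crosses those of Bmi1 and Smoc2, though with transcript lengths Ascl2 stays under Smoc2.

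Relatives of the markers were examined as 16 paralogues, of which 15 were tested. Among these 4 rose, 6 fell and 5 did not pass, so 66.7% were called, against 46.3% of all tested genes. Without mutant 1 the counts were 3 risen and 4 fallen of 15 tested paralogues, where 43.9% of all tested genes passed. In the R-spondin receptor family Lgr4, which is expressed through most of the crypt, went down from 184 ± 23.3 to 124 ± 4.005 CPM (log2 fold change -0.57, edgeR adjusted p = 9.73e-04). Lgr6 was near the floor, at 0.199 and 0.252 CPM, and was not tested. Per kb of deposited length, Lgr5 made up 7.27%, 4.91% and 5.35% of the summed Lgr4, Lgr5 and Lgr6 level in controls, and 1.09%, 1.29% and 0.996% in mutants. Every mutant had a smaller share than any control, and the size of these shares, unlike their direction, rests on the length used for Lgr5.

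The Musashi genes moved apart. Msi2, the more abundant of the pair, went down from 72.0 ± 5.33 to 51.0 ± 8.74 CPM (log2 fold change -0.50, edgeR adjusted p = 0.00700), while Msi1 rose. The share of Msi1 in their summed level per kb was 7.34%, 7.21% and 6.55% in controls and 19.7%, 19.8% and 21.2% in mutants. The listed Mex3 genes, by contrast, went up with Mex3a: Mex3b from 1.23 ± 0.0609 to 5.33 ± 0.587 CPM and Mex3d from 7.32 ± 0.514 to 10.4 ± 2.18 CPM. The log2 fold change of Mex3b was 2.12 (adjusted p = 1.96e-05 by edgeR) and that of Mex3d 0.50 (adjusted p = 0.0297). Mex3d no longer passed when any 1 of the controls, mutant 1 or mutant 3 was left out (adjusted p from 0.0502 to 0.111). Mex3c, which was not in the list and was looked up after the other values were seen, rose from a mean of 62.1 to 104 CPM (log2 fold change 0.75, edgeR adjusted p = 4.08e-05). Of Mex3a, Mex3b and Mex3d together, without Mex3c, the share of Mex3a was 32.4% ± 2.22 in controls and 31.8% ± 4.57 in mutants (SD, n = 3 each).

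Lrig1, Lrig2 and Lrig3 fell by similar amounts, with log2 fold changes of -0.36, -0.38 and -0.33, and Lrig1 made up 61.8% ± 1.26 of their summed level per kb in controls and 61.5% ± 1.79 in mutants. Rgma, the low-level relative of Rgmb, fell from 3.20 ± 0.263 to 1.98 ± 0.572 CPM (log2 fold change -0.70, adjusted p = 0.0340 by edgeR), a call that was lost when any library other than control 1 or mutant 2 was left out. Cdca7l fell with a log2 fold change of -0.22 (adjusted p = 0.0390 by edgeR), which was lost without any of control 2, control 3 or the mutants, and with DESeq2 (adjusted p = 0.0942). Smoc1 did not pass, at 1.57 ± 0.561 CPM in controls against 2.35 ± 0.900 CPM in mutants.

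**Figure D3:**
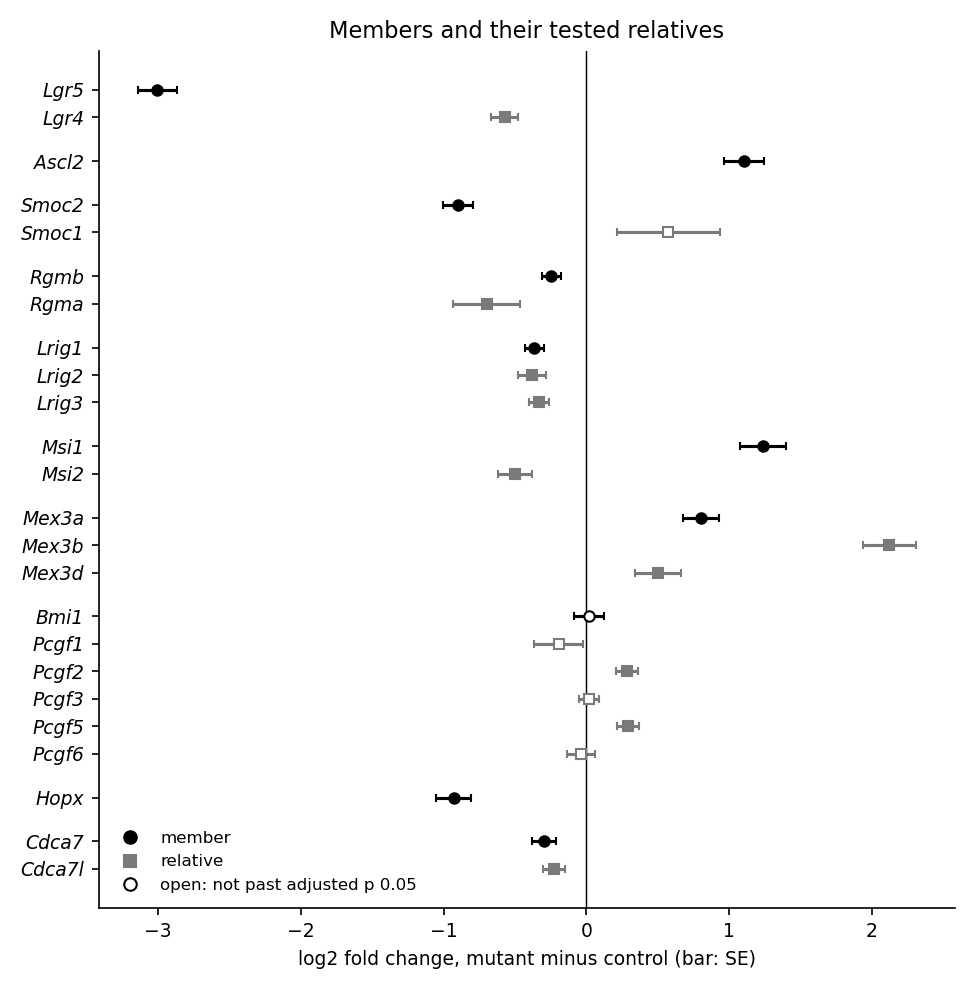
Log2 fold change (mutant minus control, bars are SE, 3 libraries a group) of the 10 markers (circles) and of tested paralogues (squares), grouped by family; open symbols did not pass an adjusted p of 0.05. Msi1 (1.24) and Msi2 (-0.50) lie on opposite sides of 0, while the Lrig genes lie together and Mex3a, Mex3b and Mex3d lie above 0.

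Around Bmi1, the other PCGF subunits of PRC1 changed little. Pcgf2 and Pcgf5 rose, with log2 fold changes of 0.28 and 0.29 (adjusted p = 0.0118 and 0.0136 by edgeR), and Pcgf1, Pcgf3 and Pcgf6 did not pass. Neither passed when control 3 was left out (edgeR adjusted p = 0.0725 for Pcgf2 and 0.0561 for Pcgf5). Pcgf2 also failed without mutant 2, and Pcgf5 without control 2 or mutant 3. Bmi1 made up 14.3% ± 1.13 of the summed PCGF level per kb in controls and 13.7% ± 1.46 in mutants. Among the partners of BMI1 in PRC1, the ring finger gene Ring1 rose from 17.5 ± 1.01 to 26.5 ± 1.71 CPM. Phc3, another subunit, fell from 69.1 ± 2.87 to 51.6 ± 1.28 CPM.

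**Figure D4:**
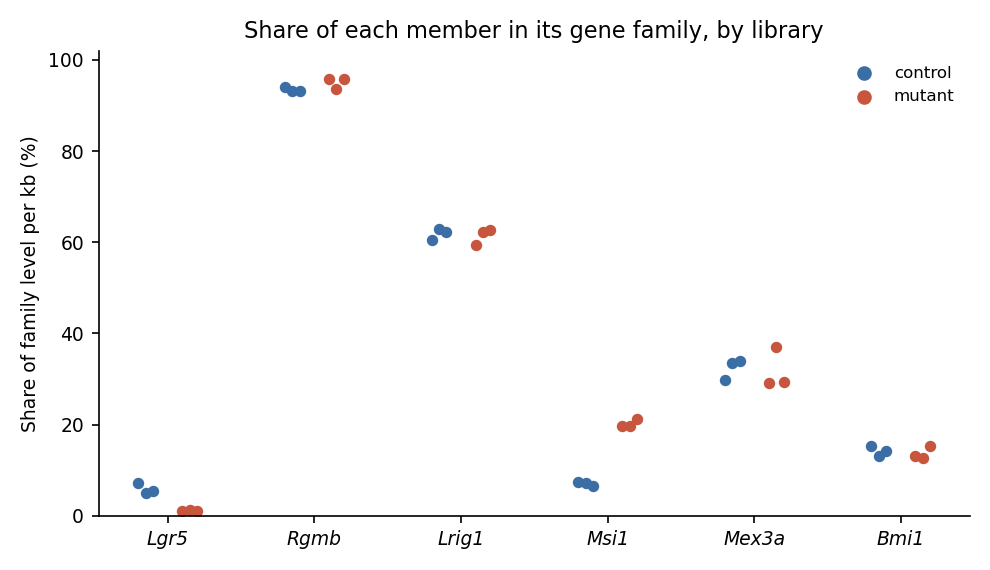
Share (%) of 6 markers in the summed CPM per kb of their listed gene families in each of 3 control and 3 mutant libraries. The share of Msi1 goes from 6.55% to 7.34% in controls to 19.7% to 21.2% in mutants and that of Lgr5 from 4.91% to 7.27% to between 0.996% and 1.29%, while the points of Lrig1, Mex3a and Bmi1 overlap.

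Partners of the markers in their pathways were listed as 29 genes, of which 25 were tested, and 6 rose and 7 fell. These calls were 52% of the 25, against 46.3% of all tested genes. The median log2 fold change of the partners was -0.07. BMP2, a ligand of the receptor complexes that RGMB joins, had the smallest p: Bmp2 rose from 32.2 ± 5.17 to 91.4 ± 10.2 CPM (log2 fold change 1.505, edgeR adjusted p = 1.36e-05). Rspo1, a ligand of LGR5 made by stroma, fell from 6.23 ± 1.24 to 3.07 ± 0.648 CPM, and Rspo2, Rspo3 and Rspo4 were too low to test. Egfr rose and Erbb3 fell among the receptors that LRIG1 restrains, with log2 fold changes of 0.39 and -0.32. Hells, the partner of CDCA7, stood at 46.9 ± 3.41 and 54.7 ± 6.76 CPM (adjusted p = 0.0917 by edgeR). Rspo1, Egfr, Erbb3 and Hells are given by choice made with their values in view.

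Other genes used as stem cell markers did not move as a block. Of 16 such genes 15 were tested, of which 3 rose, 3 fell and 9 missed the threshold. Those calls were 40% of the 15, near the 46.3% of all tested genes. The median of these stem cell genes was 0.13 on the log2 scale. Tnfrsf19, a Wnt target receptor of columnar cells, rose from 5.38 ± 0.669 to 9.89 ± 1.23 CPM, and Tns3, an adhesion adaptor gene, rose with a log2 fold change of 0.26, a call lost without control 1 or control 3 and without mutants 1 and 2 (edgeR adjusted p = 0.0501, 0.0621 and 0.0796). Rnf43, a ubiquitin ligase that removes Wnt receptors, and Prom1, which encodes the membrane protein prominin-1, fell with log2 fold changes of -0.90 and -0.60. Znrf3, the relative of Rnf43 in this list, rose from 14.2 ± 1.58 to 19.1 ± 2.38 CPM (log2 fold change 0.43, edgeR adjusted p = 0.0162). Without mutant 1 the counts here were 2 risen and 4 fallen of 15 tested, where 43.9% of all tested genes passed. Of 8 further reserve and revival markers 2 rose, 1 fell and 5 did not pass (37.5% called). Clu, a marker of revival stem cells, rose from 5.93 ± 0.265 to 37.1 ± 13.3 CPM and Ly6a from 21.6 ± 7.94 to 61.5 ± 23.9 CPM. Dclk1, read mostly in tuft cells, fell from 20.3 ± 1.48 to 6.98 ± 4.31 CPM.

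Division markers bear on Cdca7 and Lgr5, which are read in cycling cells. Of 16 such genes 7 rose, 1 fell and 8 did not pass, so 50% were called, against 46.3% of all tested genes. The summed levels of the 16 were 1414 to 1605 CPM in controls and 1654 to 1885 CPM in mutants. Mki67 carried the gap between these sums: the other 15 genes summed to 798 to 831 CPM in controls and 771 to 919.95 CPM in mutants, which overlap. Birc5, Cdk1 and Mcm3 rose with log2 fold changes of 0.55, 0.34 and 0.32, as did Mki67 with 0.38. The counts of division markers lean on mutant 1: without it 3 rose and 3 fell, where 43.9% of all tested genes passed. Without mutant 2 alone 5 rose and none fell, where 40% of all tested genes passed. Mki67 no longer passed when mutant 1 was left out (edgeR adjusted p = 0.0579), nor when control 1 or control 3 was. Mcm3 did not pass without control 1 or control 3 (adjusted p = 0.0507 and 0.0728) or without mutants 1 and 2 (0.174), and Cdk1 did not pass without mutants 1 and 2 (0.0515).

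In bulk RNA, fewer cells of a type and less RNA per cell cannot be told apart. Marker RNA of several other cell types differed between groups, and the makeup of the crypt preparations was not measured. The counts of calls below stand beside 46.3% of all tested genes called. Epithelial genes were abundant in every library, with mean control and mutant levels of 2180 ± 101 and 1621 ± 186 CPM for Epcam and of 873 ± 34.0 and 677 ± 73.3 CPM for Vil1. The epithelial list summed to 26126 to 30552 CPM in controls and 15443 to 16660 CPM in mutants. Muc2 went from a mean of 14083 to 6296 CPM and Car1 from 5613 to 2076 CPM (log2 fold changes -1.16 and -1.43). Of 10 epithelial markers 6 fell and 1, Cdh1, rose, and the Cdh1 call was lost when any library but mutant 1 was left out (edgeR adjusted p from 0.102 to 0.144). Macrophage markers summed to 18.1 to 24.8 CPM in controls and 43.0 to 65.8 CPM in mutants, with 9 of 10 risen and 1 fallen. Endothelial markers summed to 12.5 to 13.6 CPM in controls and 20.5 to 22.9 CPM in mutants, with 2 of 6 risen and 1 fallen. The higher sum came from Pecam1 (mean 5.54 CPM in controls, 10.7 CPM in mutants) and Vwf (2.24 and 7.37 CPM). Emcn fell from 2.18 to 1.05 CPM. Kdr, Tek and Cdh5 did not pass, with log2 fold changes of -0.55, -0.52 and 0.34. Smooth muscle markers summed to 75.5 to 84.0 CPM in controls and 58.1 to 62.8 CPM in mutants, with 4 of 6 fallen and none risen. Among the fallen, Myh11 no longer passed when control 2, control 3, mutant 2 or mutant 3 was left out (edgeR adjusted p from 0.0658 to 0.128). Of 11 lymphocyte markers 8 were tested and 1 rose, Cd4, with sums of 11.2 to 13.97 CPM in controls and 13.9 to 19.5 CPM in mutants. No gene of these lists was at 0 in all libraries of a group. The part of these cells in the stem cell marker results was not tested.

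**Figure D5:**
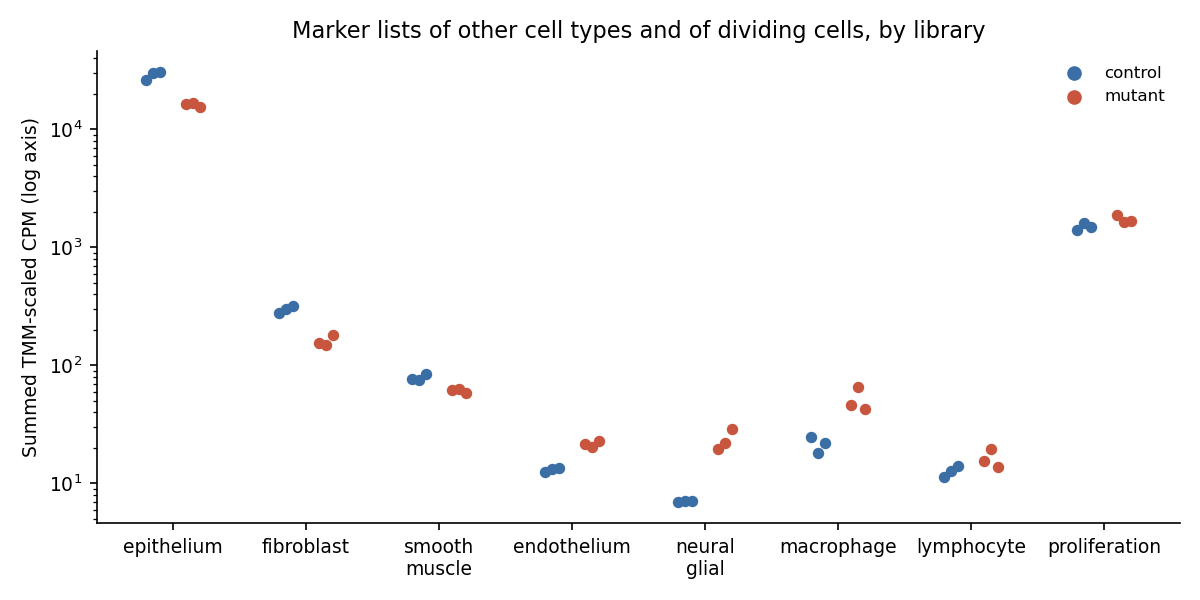
Summed TMM-scaled CPM (log axis) of marker lists of other cell types and of dividing cells in each of 3 control and 3 mutant libraries. Fibroblast sums are lower in all mutants (149 to 179.8 CPM against 279.9 to 322 CPM) and macrophage sums are higher (43.0 to 65.8 CPM against 18.1 to 24.8 CPM).

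Genes with a pattern most like that of Lgr5 and of Ascl2 were sought among 10309 other tested genes with a mean of at least 5 CPM. Predicted genes and pseudogenes were left out by name. Likeness was the Euclidean distance over 6 libraries between log2 CPM profiles, each set relative to the mean of the controls. Closest to Lgr5 were Ang4, which encodes an antimicrobial ribonuclease (distance 0.47), Fndc5 (0.48), H2-T3, a non-classical MHC class I gene (0.48), the noncoding Mirg (0.59) and the gasdermin gene Gsdmc2 (0.64). Their log2 fold changes ran from -3.25 (Gsdmc2) to -2.72 (H2-T3). Gsdmc2 has near-identical copies, so its level is uncertain. Closest to Ascl2 were Gemin7 (distance 0.13), Hyal2 (0.15), Jag2, a Notch ligand gene (0.16), Pygl (0.16) and Prr12 (0.17), with log2 fold changes of 1.059 to 1.14. The distances were smaller for Ascl2 than for Lgr5. Only 0.167% of tested genes had a log2 fold change under that of Lgr5, while Ascl2 stood at the 89.7 percentile. The distances of the 2 genes are therefore not on an equal footing. With a prior count of 0.5 instead of 2, the same 5 genes were closest to each.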

How the data were processed

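Polyadenylated RNA of 6 libraries was counted by the authors, 3 from control and 3 from mutant mice. The submitters' processing notes name Trim Galore 0.6.5 for trimming, STAR 2.6.1d for alignment and GRCm38 as the build. The deposited values are raw counts of fragments per gene from featureCounts 1.6.4 and GENCODE vM25, per the file headers, with strand of read 1 and no counting of fragments on several genes or places. Every row names a gene, and a ribosomal RNA gene took 5.16% to 12.9% of counts.

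Counts were tested with edgeR 4.0.16 in R 4.3.3: filterByExpr (minimum count 10, minimum total 15), TMM scaling and the quasi-likelihood F test, 2-sided, on genotype alone, with Benjamini-Hochberg adjustment over 18539 genes. The 95% intervals use the SE and degrees of freedom of that fit. CPM per kb is TMM-scaled CPM divided by the deposited gene length. Replicates of a group differed by more than counting noise (chi-square per gene 12.3 to 76.0). A count of 0 would allow up to 0.0853 to 0.124 CPM (3 counts), which covers counting error only, as reads carry no molecular identifiers. Beyond the design text's pairs of mice no label ties a library to an animal, so p-values measure only the spread between these libraries, which may be technical.

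The members, lists and alternatives were chosen with earlier results of these data known. Named were all members, tested paralogues, up to 4 called genes per other list by smallest p, the 5 nearest to Lgr5 and Ascl2, Mettl14, and leading markers of other cell types. Lgr6, Mex3c, the Rspo genes, Egfr, Erbb3, Hells, Ret, Cd4, Pdgfrb, Pdgfra, Thy1, Lum, Xist, Ddx3y and Hopxos stand outside that rule and were chosen after their values were seen. The same holds for Znrf3, Car1, Muc2, Vwf, Emcn and Tek. Some genes that the rule names are not reported here by name, though they stay in the counts. The fit was tested on simulated counts of 18053 genes for mutant against control. It recovered 93.9% of 66 genes changed 4-fold, 77.6% of 67 changed 2-fold and 52.2% of 67 changed 1.5-fold. Of its calls 9.7% were false, more than the threshold of 0.05 is meant to allow. Far fewer genes were changed there than the 46.3% that passed in these data, so these rates are not those of this comparison. Alternatives were 3 scalings, 2 filters, DESeq2 1.42.0, limma 3.58.1 (voom, with and without weights), a 1.5-fold null, a stricter threshold (0.01), the replicate number as a block, leaving out abundant genes and leaving out libraries.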

Additional observations from a re-analysis of the deposited data

How the results depend on the processing

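Lgr5, Ascl2, Smoc2, Msi1 and Hopx kept direction and call under all 19 alternatives. Against a null of 1.5-fold, 2 markers rose and 3 fell, and 2747 of all genes passed instead of 8589, since that test asks for a larger change. At an adjusted p of 0.01, Rgmb and Cdca7 were lost. Leaving out each library, the counts were 3 to 3 risen and 5 to 6 fallen markers, 7057 to 8571 genes over all, and -4.24 to -3.97 for the mean difference in the log2 ratio of Lgr5 to Ascl2. With library size as the only scaling 59% of called genes were higher, against 50.7%. Without a filter on low counts the median log2 fold change of all genes was 0.19. The sign of genes without a call turned for Bmi1 (-0.0150 with no filter on low counts, and -0.0671 to 0.0772 leaving out each library), Pcgf3 (-0.0171 with no filter, -0.0349 without mutant 1 and mutant 2, and -0.0258 to 0.0329 leaving out each library) and Pcgf6 (0.0356 with library size only, and -0.0998 to 0.0071 leaving out each library). Without mutant 1 and mutant 2 it also turned for Smoc1 (-0.22), Ptprc (-0.0607) and Cd3d (-0.26), and the cause was not tested. With the replicate number as a block, 3 markers rose, 6 fell and 7403 genes passed. Deviations of same-numbered libraries from their group means had correlations of -0.14 to -0.07. Those of other control and mutant libraries ran from -0.0145 to 0.127. With 3 libraries in a group, such values cannot decide whether the numbers pair samples. Among named genes the block also ended the calls of Rgma, Mex3d, Cdca7l, Mki67, Cdh1 and Myh11 (adjusted p = 0.0527, 0.0554, 0.0866, 0.0538, 0.140 and 0.0595 by edgeR). Cdca7l was also lost with library size only, no filter and a minimum count of 50 (0.170, 0.0892 and 0.0598), Cdh1 with upper quartile scaling and no filter (0.0553 and 0.118), Tns3, Pcgf2 and Pcgf5 with no filter (0.0540, 0.0892 and 0.0586), and Rgma and Vil1 with library size only (0.0556 and 0.0558). Myh11 was also lost with library size only and with a minimum count of 50 (edgeR adjusted p = 0.0663 and 0.0574). Depth limits Msi1, Ascl2 and mutant Lgr5, which rest on 64 to 386 counts a library.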
